A study of Homo sapiens with 12 samples.

Results

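The enzymes that modify and fold collagen in the endoplasmic reticulum were followed in HK2 cells, an immortalised human proximal tubular line, through 8 genes chosen by name: the lysyl hydroxylases PLOD1, PLOD2 and PLOD3, the catalytic alpha subunits of prolyl 4-hydroxylase P4HA1, P4HA2 and P4HA3, the prolyl 3-hydroxylase P3H1, and SERPINH1, a chaperone that binds folded procollagen. All 8 were found among the 62703 Ensembl genes measured, and all 8 passed the expression filter that 14639 genes passed. PLOD2 was lower than in the reference group in each of the 3 comparisons, with a mean that ran from 293 TPM in NG down to 17.9 TPM in HG+OE-FGF9. P4HA1 was lower than NG under both HG and si-FGF9, while the other 6 genes stayed within 1.76-fold between their highest and lowest group means. With a correction for GC content, PLOD2 was no longer called in HG versus NG nor P4HA1 against NG, while PLOD2 stayed called in the other comparisons.

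Collagen chains are hydroxylated on proline and lysine as they enter the endoplasmic reticulum, by enzymes that need iron, oxygen, 2-oxoglutarate and ascorbate. Prolyl 4-hydroxylase, a tetramer of alpha subunits with the disulfide isomerase P4HB, makes the hydroxyproline that keeps the triple helix stable, and P3H1 works with CRTAP and the cyclophilin PPIB on a few proline sites. Lysyl hydroxylation provides the sites for sugar attachment and for cross-links, and PLOD2, the enzyme of the telopeptides, is known for the cross-links of fibrotic tissue. PLOD2, P4HA1 and P4HA2 are textbook targets of the hypoxia-inducible factor HIF-1.

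The 12 libraries comprised 3 of each group. NG cells were kept in 5.5 mM glucose with a control vector, HG cells received 50 mM glucose, si-FGF9 cells were transfected with a small interfering RNA against FGF9 in the basal medium, and HG+OE-FGF9 cells received 50 mM glucose and a vector that overexpresses FGF9. The text of the study describes the NG medium in one place as mannitol and the vector once as lentiviral and once as adenoviral. No non-targeting small interfering RNA and no empty vector in high glucose are described, so that transfection and vector cannot be told apart from the FGF9 treatments. Since a control vector is described for NG and none for HG, glucose and vector cannot be told apart in HG versus NG. Unless NG held mannitol, neither can glucose and osmolarity. The labels do not say that the 3 libraries of a group came from separate cultures, and p-values then measure only the spread between these libraries.

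Values were deposited as TPM, a share of all transcripts in a library, which are scaled per transcript length and can be compared between genes, but keep no record of depth. Between 11549 and 13949 genes reached 1 TPM in a library. FGF9 itself was listed at 0 in all 9 libraries of NG, HG and si-FGF9 and at 3.34, 4.03 and 3.82 TPM in HG+OE-FGF9. The knockdown could therefore not be checked from these TPM. The study measured FGF9 mRNA separately by RT-qPCR in HK2 cells of the same groups. The keratins of epithelial cells were high, whereas CDH1 was under 1 TPM in all 12 libraries, as were 4 of 8 proximal tubule markers (ANPEP, LRP2, CUBN and SLC34A1). Replicates 1 and 2 of HG+OE-FGF9 were closer to each other (median absolute log2 difference 0.0598 over 6217 genes) than to replicate 3 (0.367 and 0.371). NG replicates 2 and 3 were likewise closer to each other (0.0754) than to replicate 1 (0.177 and 0.200). Each of these pairs was therefore also counted as 1 sample. In si-FGF9, replicates 1 and 2 differed by 0.121, beside 0.246 and 0.290 from replicate 3, and were not merged. The HG pairs differed by 0.284 to 0.569. With NG replicates 2 and 3 as 1 sample, PLOD2 and P4HA1 stayed called in both comparisons with NG, and no other of the 8 genes was called.

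A gene was called when its log2 fold change was at least 1 in either direction and its unadjusted p was under 0.01 by limma, the criteria of the study, and limma's Benjamini-Hochberg adjusted p over all genes tested is given beside it. The genes tested had a median log2 fold change of -0.39 for HG against NG, -0.79 for si-FGF9 against NG and -0.13 for HG+OE-FGF9 against HG, and the changes below are to be read against these shifts. GC content went with this shift: with the genes cut into 10 bins of GC content, the lowest bin had a median of -1.22 and the highest of 0.30 in HG versus NG, and -1.79 and 0.20 in si-FGF9 versus NG. The values of the 8 genes are therefore also given with each library corrected for GC content, or after median of ratios scaling, which sets the typical gene to the same level in every library. In bulk RNA, fewer cells with a transcript and less of it per cell cannot be told apart.

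The promoters of PLOD2 and PLOD3 are shown because these lysyl hydroxylases moved differently and because PLOD2 is known as a HIF target. The RefSeq windows of GRCh38.p14 hold the 250 bases before the annotated start, read 5′ to 3′ on the strand of the gene, and capitals mark the core letters of a hypoxia response element, ACGTG or GCGTG, on either strand (CACGT or CACGC when read from the other). The PLOD2 window lies at chr3:146161185-146161434 on the minus strand, within the annotated bounds of its gene, which reach 146163653. The PLOD3 window lies at chr7:101217582-101217831, also on the minus strand and within the annotated bounds of its gene, which reach 101218420.
PLOD2: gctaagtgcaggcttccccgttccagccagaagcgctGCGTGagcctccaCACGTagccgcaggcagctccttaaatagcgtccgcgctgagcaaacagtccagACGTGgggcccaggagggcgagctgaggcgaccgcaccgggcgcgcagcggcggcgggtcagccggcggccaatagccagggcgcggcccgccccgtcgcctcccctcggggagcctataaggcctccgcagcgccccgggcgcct
PLOD3: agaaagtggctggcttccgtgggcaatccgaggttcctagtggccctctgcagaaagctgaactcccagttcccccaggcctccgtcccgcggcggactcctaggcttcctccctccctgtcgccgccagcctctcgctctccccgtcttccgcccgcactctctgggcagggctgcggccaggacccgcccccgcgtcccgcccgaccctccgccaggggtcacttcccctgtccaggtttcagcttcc

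The PLOD2 window held 3 matches, which begin 213, 200 and 146 bases before the start, and the PLOD3 window held 0. Of 35116 RefSeq promoter windows of this length, 43.2% held at least 1 such match and 7.76% held at least 3, so that the letters alone are common. The single match of P4HA1 begins 86 bases before its start and is shown within 30 bases at chr10:73096935-73096964 on the minus strand.
P4HA1: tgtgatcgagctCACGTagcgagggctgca

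The window of PLOD1 held 2 matches, that of P3H1 held 1 and that of P4HA2 held 0. Those of PLOD1 and P4HA2 lie within the annotated bounds of their genes, and not before the outermost annotated start. For P4HA2 the window is at 132227092-132227341, in a gene on the minus strand that reaches 132295315. SERPINH1 has 2 windows, with 0 and 3 matches, of which a pair share bases, and P4HA3 has no entry. The SERPINH1 window with 3 matches also lies within the annotated bounds of its gene, as do the 30 bases shown for P4HA1. A match is a description of the letters and not of binding, which was not measured here.

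PLOD2 (ENSG00000152952, chromosome 3, 146069440 to 146163653 of GRCh38, minus strand), the lysyl hydroxylase of collagen telopeptides, was the most abundant lysyl hydroxylase transcript in NG. It measured 333, 284 and 261 TPM in the NG libraries and 120, 57.8 and 83.9 TPM in HG. It measured 44.0, 46.6 and 25.9 TPM in si-FGF9 and 11.0, 11.6 and 31.2 TPM in HG+OE-FGF9. NG was highest and did not overlap any other group, HG did not overlap si-FGF9, and si-FGF9 and HG+OE-FGF9 overlapped, with replicate 3 the highest of the HG+OE-FGF9 libraries.

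**Figure D1:**
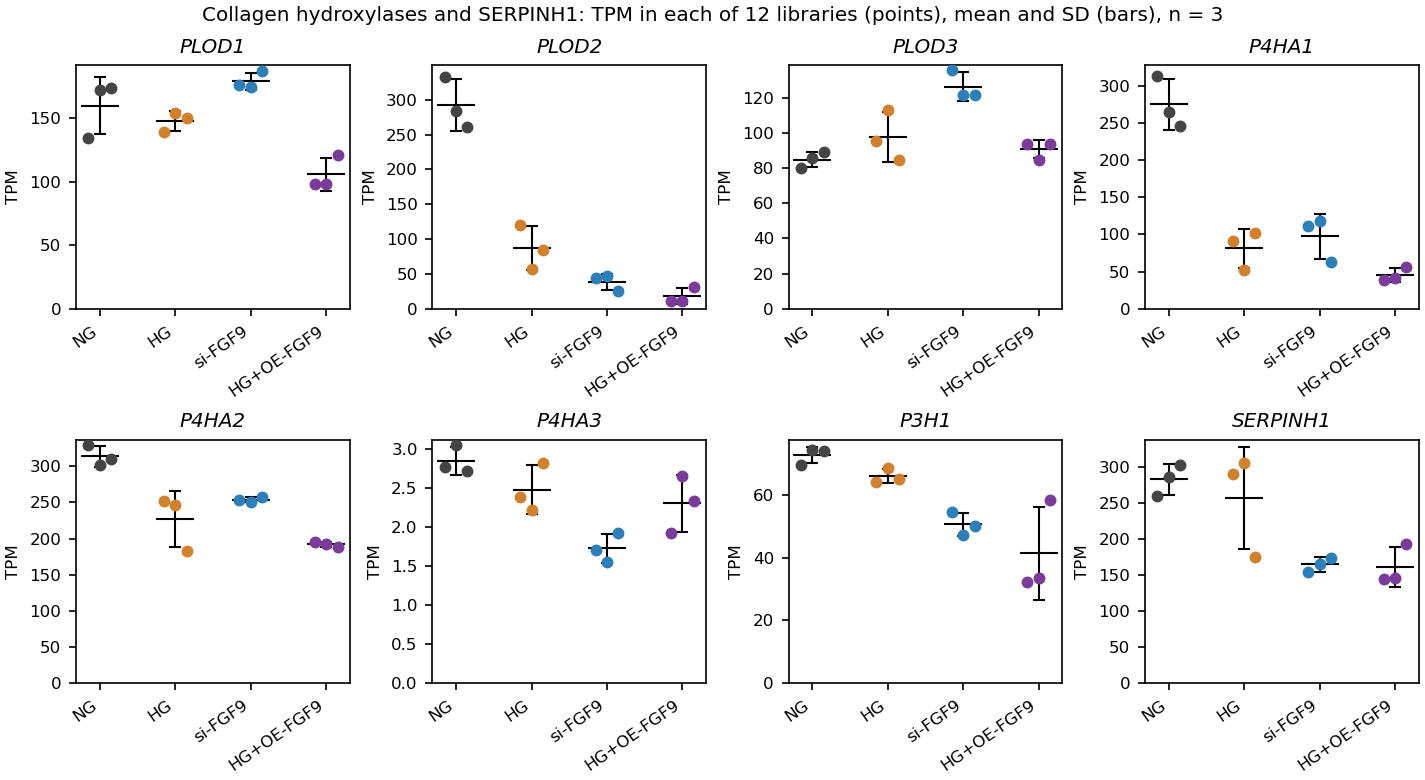
TPM (vertical axis, linear from 0) of each gene in each library, by group, with horizontal bars for the mean and vertical bars for the SD of 3 libraries. PLOD2 and P4HA1 stand in NG above every other library, from 261 and 247 TPM upward. P4HA2 and P3H1 do so as well by a smaller margin, from 302 and 69.6 TPM upward, whereas PLOD1 and PLOD3 show no such drop.

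In HG versus NG, PLOD2 was 3.35-fold lower by the ratio of mean TPM, with a log2 fold change of -1.79 (SE 0.37, limma adjusted p = 0.0029). In si-FGF9 versus NG it was 7.54-fold lower, with a log2 fold change of -2.92 (SE 0.37, limma adjusted p = 3.4e-05). These comparisons share the NG libraries, and their agreement is not a separate observation. Beside HG, HG+OE-FGF9 was 4.88-fold lower, with a log2 fold change of -2.32 (SE 0.37, limma adjusted p = 0.0036). Under median of ratios scaling these changes were -1.26, -1.88 and -2.17, each called. With HG+OE-FGF9 replicates 1 and 2 counted as 1 sample, the log2 fold change was -2.09 (limma adjusted p = 0.023).

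PLOD2 has the lowest GC content of the 8 genes, 34.4%, and falls in the lowest bin of all genes. Corrected, HG differed from NG by -0.68 on the log2 scale and PLOD2 was no longer called (limma adjusted p = 0.085). It remained called in si-FGF9 versus NG, at -1.33, and in HG+OE-FGF9 versus HG, at -1.99. In the last comparison the median of its GC bin was -0.36, far smaller than its own change.

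PLOD1 (ENSG00000083444, chromosome 1, 11934205 to 11975538, plus strand), the lysyl hydroxylase of the helical sites, measured 134, 172 and 173 TPM in NG, 139, 154 and 150 under HG, 176, 174 and 187 with si-FGF9 and 98.2, 97.9 and 121 with HG+OE-FGF9. All 3 HG+OE-FGF9 libraries lay below all other libraries. HG+OE-FGF9 differed from HG by a log2 fold change of -0.49 (SE 0.14, limma adjusted p = 0.043), short of the limit of 1, and -0.54 after GC correction. With HG+OE-FGF9 replicates 1 and 2 as 1 sample, the adjusted p was 0.19. Its log2 fold changes in HG and si-FGF9 versus NG were -0.10 and 0.17, neither with an adjusted p under 0.05. After GC correction they were -0.18 and 0.30, the second with a limma adjusted p of 0.042. Under median of ratios scaling they were 0.42 and 1.22, of which the second was called higher (limma adjusted p = 5.2e-05).

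PLOD3 (ENSG00000106397, chromosome 7, 101205977 to 101218420, minus strand), which also carries the glycosyltransferase activity that adds sugars to hydroxylysine, measured 80.1, 85.7 and 89.0 TPM in NG and 136, 122 and 122 TPM in si-FGF9. The si-FGF9 libraries lay above those of every other group, and HG (84.7 to 113 TPM) and HG+OE-FGF9 (84.9 to 93.9 TPM) each overlapped NG. In si-FGF9 versus NG the log2 fold change was 0.57 (SE 0.13, limma adjusted p = 0.0020) and 0.48 after GC correction, below the limit of 1. Under median of ratios scaling it was 1.61 and was called higher (limma adjusted p = 2.5e-05). The gene overlaps ZNHIT1 on the opposite strand, and whether counting used strand is not stated.

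**Figure D2:**
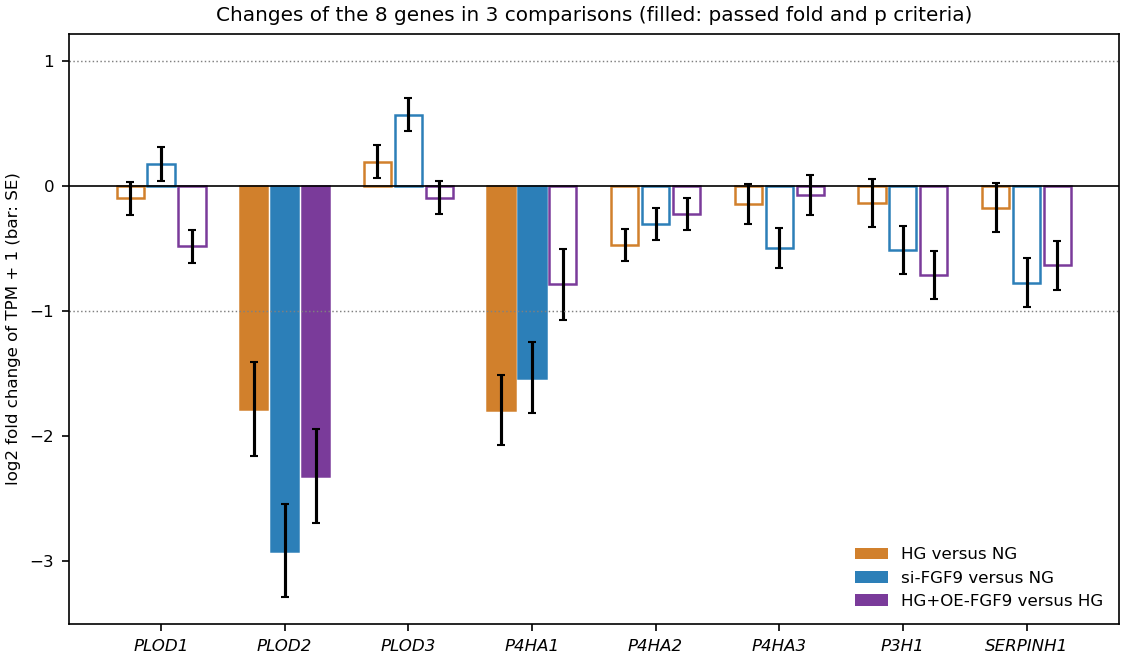
Log2 fold change of TPM + 1 (vertical axis) with its SE for each gene in 3 comparisons, filled where the gene was called. PLOD2 is filled in all 3, at -1.79, -2.92 and -2.32, and P4HA1 in the comparisons with NG, at -1.80 and -1.54.

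The composition of the lysyl hydroxylase transcripts shifted with these changes. The summed TPM of PLOD1, PLOD2 and PLOD3 averaged 537 in NG, 333 under HG, 344 with si-FGF9 and 214 with HG+OE-FGF9. PLOD2 made up 54.4% of it in NG (49.9% to 60.9% over the 3 libraries), 26.0% under HG (17.8% to 33.9%), 11.2% with si-FGF9 (7.74% to 13.6%) and 8.02% with HG+OE-FGF9 (5.42% to 12.7%). The share differed by -28.4 percentage points in HG versus NG, by -43.1 in si-FGF9 versus NG and by -18.0 in HG+OE-FGF9 versus HG. No pair overlapped, and the two-sided exact permutation p was 0.1 in each, the smallest that 3 libraries against 3 allow. With GC correction the differences were -7.99, -21.2 and -16.8 points, so that the last was the least altered.

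**Figure D3:**
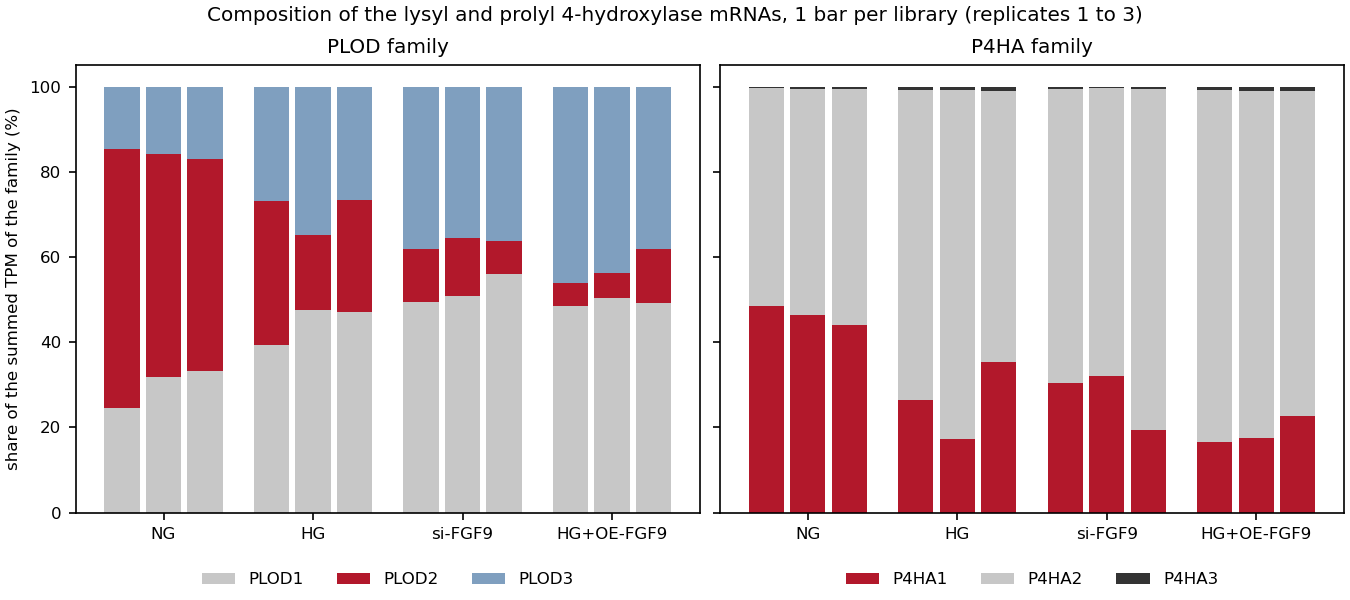
Share of the summed TPM of the family (vertical axis, %) taken by each lysyl hydroxylase (left) and each prolyl 4-hydroxylase alpha subunit (right), 1 bar per library. PLOD2 falls from 54.4% in NG to 8.02% in HG+OE-FGF9 and P4HA1 from 46.4% to 18.9%, on average.

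P4HA1 (ENSG00000122884, chromosome 10, 73007217 to 73096974, minus strand), a catalytic subunit of prolyl 4-hydroxylase, measured 314, 265 and 247 TPM in NG and 90.8, 51.7 and 101 TPM in HG. It measured 111, 119 and 62.3 TPM in si-FGF9 and 39.1, 41.0 and 56.1 TPM in HG+OE-FGF9. NG lay above all other libraries, and HG overlapped both si-FGF9 and HG+OE-FGF9. Against NG, P4HA1 had a log2 fold change of -1.80 under HG (SE 0.28, limma adjusted p = 0.0010) and of -1.54 with si-FGF9 (SE 0.28, limma adjusted p = 0.00041). Between HG+OE-FGF9 and HG it was -0.79 (SE 0.28, limma adjusted p = 0.099) and was not called, but without HG replicate 2, the lowest HG library, it was -1.08 and was called.

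P4HA1 has a GC content of 40.8%, and the median of its GC bin was -1.08 in HG versus NG and -1.63 in si-FGF9 versus NG. Its change in si-FGF9 versus NG thus lay at the median of genes of like GC content, and after the correction it was -0.03 (limma adjusted p = 0.89). Under median of ratios scaling that value was -0.49 and was not called. In HG versus NG the corrected change was -0.81 (limma adjusted p = 0.0033), which is short of the limit of 1 and keeps an adjusted p under 0.05. In HG+OE-FGF9 versus HG it was -0.51 (limma adjusted p = 0.039), also short of the limit. With HG+OE-FGF9 replicates 1 and 2 as 1 sample, the uncorrected change there was -0.71 (limma adjusted p = 0.31).

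P4HA2 (ENSG00000072682, chromosome 5, 132191838 to 132295315, minus strand), the other abundant alpha subunit, measured 330, 302 and 310 TPM in NG, 252, 246 and 183 under HG, 253, 251 and 258 with si-FGF9 and 195, 192 and 188 with HG+OE-FGF9. All NG libraries exceeded all others, by less than for P4HA1. HG differed from NG by a log2 fold change of -0.48 (SE 0.13, limma adjusted p = 0.0093), which became -0.12 after GC correction and 0.05 under median of ratios scaling. In si-FGF9 versus NG it was -0.30 (limma adjusted p = 0.0502), which turned to 0.39 with GC correction (limma adjusted p = 0.030). The gene overlaps other annotated genes, PDLIM4 and P4HA2-AS1 among them.

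P4HA3 (ENSG00000149380, chromosome 11, 74235801 to 74311657, minus strand) was the rare alpha subunit, with 1.55 to 3.05 TPM over the 12 libraries. Its si-FGF9 libraries (1.71, 1.55 and 1.92 TPM) lay below all NG libraries (2.77, 3.05 and 2.72 TPM), with a log2 fold change of -0.50 (SE 0.16, limma adjusted p = 0.016) that was 0.03 after GC correction. At this level a fold change on log2(TPM + 1) understates the ratio of TPM, which was 1.65, and the GC correction on that scale is less certain.

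P4HA1 made up 46.4% of the summed alpha subunit TPM in NG, 26.3% under HG, 27.2% with si-FGF9 and 18.9% with HG+OE-FGF9. The difference was -20.1 percentage points in HG versus NG and -19.2 in si-FGF9 versus NG, each with an exact permutation p of 0.1, and -7.38 in HG+OE-FGF9 versus HG, with an exact permutation p of 0.3. With GC correction these were -10.1, -6.22 and -3.78 points. P4HB, the beta subunit, has other roles as a disulfide isomerase and was far more abundant, at 1112 TPM in NG, 1001 under HG, 770 with si-FGF9 and 672 with HG+OE-FGF9. Its ratio to the summed alpha subunits was 1.61 to 2.09 in NG, 3.17 to 3.31 under HG, 2.05 to 2.36 with si-FGF9 and 2.61 to 3.16 with HG+OE-FGF9. HG and HG+OE-FGF9 thus lay above NG without overlap, whereas si-FGF9 overlapped NG. This ratio was taken without GC correction, and P4HB has a GC content of 58.4%, beside 40.8% for P4HA1 and 49.1% for P4HA2.

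P3H1 (ENSG00000117385, chromosome 1, 42746335 to 42767084, minus strand), the prolyl 3-hydroxylase, measured 69.6, 74.2 and 74.1 TPM in NG, 64.2, 68.5 and 65.1 under HG, 54.5, 47.1 and 50.1 with si-FGF9 and 32.2, 33.6 and 58.4 with HG+OE-FGF9. NG, HG and si-FGF9 followed each other without overlap, and HG+OE-FGF9 replicate 3 lay above si-FGF9. In HG+OE-FGF9 versus HG the log2 fold change was -0.71 (SE 0.19, limma adjusted p = 0.039) and -0.72 after GC correction, whereas with replicates 1 and 2 as 1 sample it was -0.58 (limma adjusted p = 0.19). In si-FGF9 versus NG it was -0.52 (limma adjusted p = 0.031, or 0.075 with NG replicates 2 and 3 as 1 sample), which turned to 0.18 with GC correction and 0.52 under median of ratios scaling. Its partner CRTAP differed by -0.56 and -0.65 under HG and si-FGF9 against NG and by -0.64 in the third comparison, and PPIB, the third subunit, by 0.39, 0.60 and 0.01. None of these 6 values reached a log2 fold change of 1. After GC correction CRTAP differed by 0.02 in si-FGF9 versus NG, and PPIB by 1.02, which was called higher (limma adjusted p = 0.00045).

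SERPINH1 (ENSG00000149257, chromosome 11, 75562056 to 75572783, plus strand), the procollagen chaperone, measured 260, 287 and 303 TPM in NG and 154, 166 and 174 TPM in si-FGF9. It measured 291, 306 and 176 TPM in HG and 145, 146 and 194 TPM in HG+OE-FGF9. HG replicate 3 stood apart from the other HG libraries and lay among the HG+OE-FGF9 values, so that these groups overlapped. In si-FGF9 versus NG the log2 fold change was -0.78 (SE 0.20, limma adjusted p = 0.0038), -0.51 after GC correction and 0.27 under median of ratios scaling. In HG versus NG it was -0.18, which turned to 0.08 without HG replicate 3. In HG+OE-FGF9 versus HG it was -0.64 (limma adjusted p = 0.063), and -0.70 after GC correction (limma adjusted p = 0.013). With HG+OE-FGF9 replicates 1 and 2 as 1 sample it was -0.57 without GC correction (limma adjusted p = 0.24).

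Over the 8 genes, 2 (PLOD2 and P4HA1) were called in HG versus NG, both lower, where 24.4% of all genes tested were called (22.7% lower and 1.65% higher). The same number, again PLOD2 and P4HA1, was called in si-FGF9 versus NG, where 47.6% of all genes were called (42.2% lower and 5.36% higher). In both comparisons the count is near or below the share of all genes, and nothing particular to the 8 genes is read from it. In HG+OE-FGF9 versus HG, PLOD2 alone was called, where 5.61% of all genes were called (2.67% lower and 2.94% higher). By an adjusted p under 0.05 with no fold limit the counts were 3, 6 and 3 of the 8 genes, against 49.0%, 69.3% and 9.53% of all genes tested. After GC correction 0, 1 and 1 of the genes were called in these comparisons, PLOD2 in both of the latter, where 6.84%, 24.3% and 5.21% of all genes were called. In the first of these, 2 of the genes had an unadjusted p under 0.05 by limma.

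The median log2 fold change of the 8 genes was -0.16 in HG versus NG, -0.51 in si-FGF9 versus NG and -0.56 in HG+OE-FGF9 versus HG, beside -0.39, -0.79 and -0.13 over all genes. After GC correction the medians were -0.14, 0.11 and -0.53. In HG+OE-FGF9 versus HG all 8 fold changes were below 0, although those of PLOD3 and P4HA3 turned positive under median of ratios scaling. The libraries of the groups did not overlap for 4 genes in HG versus NG, for all 8 in si-FGF9 versus NG and for 3 in the third comparison, against 57.2%, 76.4% and 22.1% of all genes tested. The sum of the 8 genes averaged 1485 TPM in NG, 967 under HG, 912 with si-FGF9 and 657 with HG+OE-FGF9.

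**Figure D4:**
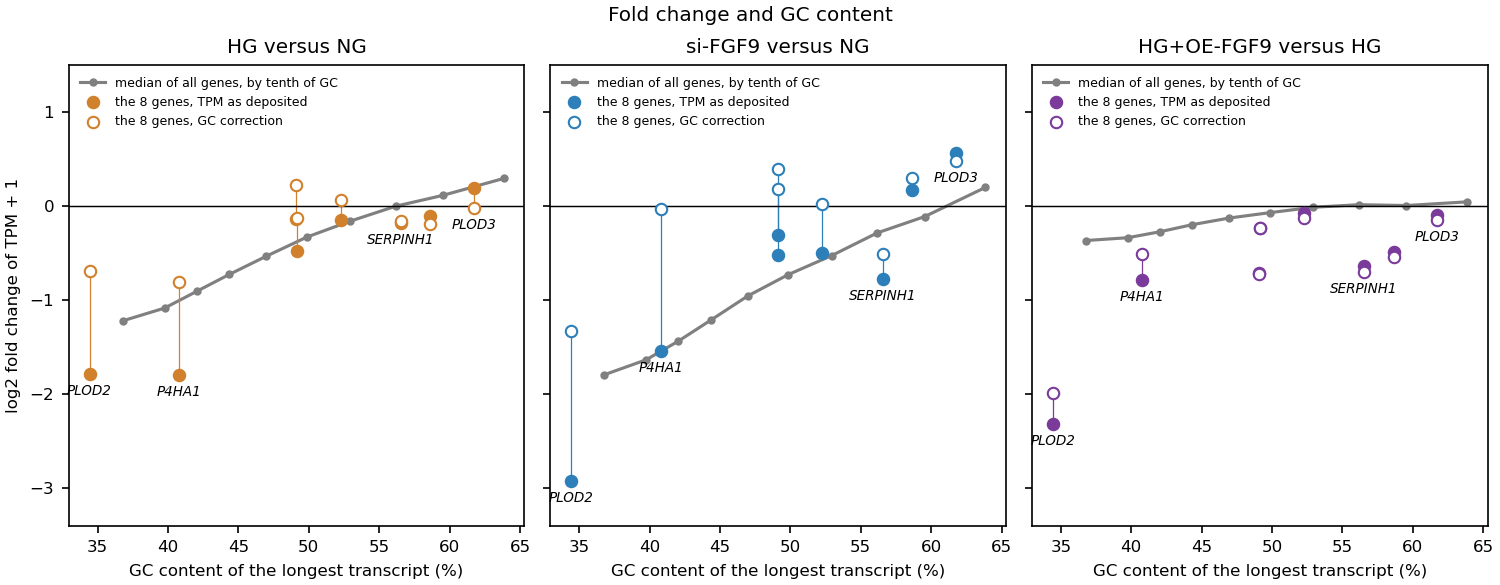
Log2 fold change of TPM + 1 (vertical axis) against GC content of the longest transcript (horizontal axis, %) for the 8 genes before (filled) and after (open) GC correction, with the median of all genes in 10 bins of GC content (grey line). PLOD2 stays at -1.99 in HG+OE-FGF9 versus HG, whereas P4HA1 in si-FGF9 versus NG moves from -1.54 to -0.03.

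Other genes of the collagen pathway were grouped by the step at which they act, and their counts are to be read against the share of all genes called lower, 22.7% in HG versus NG, 42.2% in si-FGF9 versus NG and 2.67% in the third comparison. Counts after GC correction have a smaller background. Of 14191 genes, 434 were then lower and 536 higher in HG versus NG. The numbers were 1701 and 1751 in si-FGF9 versus NG, and 309 and 430 in the third comparison. Of 11 partners in the endoplasmic reticulum, 3 were called lower in HG versus NG, 3 in si-FGF9 versus NG and 1 in HG+OE-FGF9 versus HG, with 0 higher. After GC correction 1 was lower in each, and PPIB was higher in si-FGF9 versus NG. P3H2, a prolyl 3-hydroxylase of basement membrane collagen, averaged 147 TPM in NG, 61.1 under HG, 23.2 with si-FGF9 and 25.7 with HG+OE-FGF9. Its log2 fold changes of -1.30, -2.62 and -1.34 were called in all 3 comparisons, also after GC correction (-1.02, -2.02 and -1.38). With HG+OE-FGF9 replicates 1 and 2 as 1 sample the last was -1.10 and was not called. FKBP14, a prolyl isomerase of the endoplasmic reticulum, and TMEM38B, an ion channel of its membrane, were called lower in HG (-1.40 for each) and si-FGF9 (-1.82 and -1.56) versus NG, and none of these was called after GC correction.

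Of 10 genes for the export of procollagen in COPII vesicles, 5 were called lower in HG versus NG, 8 in si-FGF9 versus NG and 0 in HG+OE-FGF9 versus HG by limma, where 3 had an unadjusted p under 0.05. After GC correction these counts were 1, 3 and 0. The coat subunit SEC24D averaged 56.9 TPM in NG, 16.1 under HG and 5.13 with si-FGF9, at log2 fold changes of -1.79 and -3.24, and -1.21 and -2.26 after GC correction. The coat subunit SEC23A (-1.98 and -2.81) and the GTPase SAR1B (-1.31 and -3.23) were also called lower against NG, and after GC correction in si-FGF9 only. Of 6 tested genes of procollagen cleavage, 0 were called in HG versus NG and in HG+OE-FGF9 versus HG by limma, where 5 and 2 had an unadjusted p under 0.05. In si-FGF9 versus NG 2 were called lower, both under a mean of 5 TPM. These were TLL1 (0.16 TPM beside 1.51 in NG) and ADAMTS3 (0.59 beside 3.51). Neither was called after GC correction (0.32 and -0.21), which is unreliable at values this low.

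Among 22 collagen chains listed, 14 were tested. Of these, 5 were called lower in HG versus NG, 6 lower and 1 higher in si-FGF9 versus NG, and 5 lower in HG+OE-FGF9 versus HG. After GC correction the counts were 3 lower, then 4 lower and 2 higher, and 5 lower. COL4A1, a chain of basement membrane collagen, averaged 243 TPM in NG, 80.2 under HG, 33.4 with si-FGF9 and 37.9 with HG+OE-FGF9, with log2 fold changes of -1.59, -2.83 and -1.08 that remained called after GC correction. COL8A1, a short-chain collagen, differed by -1.18, -2.71 and -2.24, and by -0.69, -1.85 and -2.18 after GC correction, with the first no longer called, nor with NG replicates 2 and 3 as 1 sample (-1.22). COL7A1, the anchoring fibril collagen, went the other way in si-FGF9, at 320 TPM beside 119 in NG (log2 fold change 1.42), and was called lower in HG+OE-FGF9 versus HG (-1.10). With HG+OE-FGF9 replicates 1 and 2 as 1 sample, COL8A1 stayed called there (-1.98), whereas COL4A1 (-0.98) and COL7A1 (-0.998) fell just short of the limit. The summed TPM of the collagen chains was 1052 in NG, 858 under HG, 917 with si-FGF9 and 471 with HG+OE-FGF9.

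Of 14 tested genes among the other 2-oxoglutarate-dependent hydroxylases and the HIF subunits, 3 were called lower in HG versus NG, 7 lower and 1 higher in si-FGF9 versus NG, and 1 lower in HG+OE-FGF9 versus HG. After GC correction 1 was lower (HIF1A) and 1 higher (EGLN2) in HG versus NG, 1 lower and 2 higher in si-FGF9 versus NG, and 0 were called in the third comparison. HIF1A, the oxygen-regulated subunit of HIF-1, averaged 468 TPM in NG, 111 under HG, 39.0 with si-FGF9 and 40.9 with HG+OE-FGF9. Its log2 fold changes versus NG were -2.43 and -3.59, and -1.30 and -1.95 after GC correction, and in HG+OE-FGF9 versus HG it was not called (-1.14, limma adjusted p = 0.16). ASPH, an aspartyl hydroxylase of the endoplasmic reticulum, differed by -1.97 and -2.31 versus NG, and ARNT, the constant partner of HIF1A, by -1.30 and -1.69, with none of these 4 called after GC correction. EGLN2, a HIF prolyl hydroxylase, was called higher in si-FGF9 versus NG (1.46, and 1.77 after GC correction). HIF is regulated at the level of the protein, which was not measured, and its part in the levels of PLOD2 and P4HA1 was not tested.

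**Figure D5:**
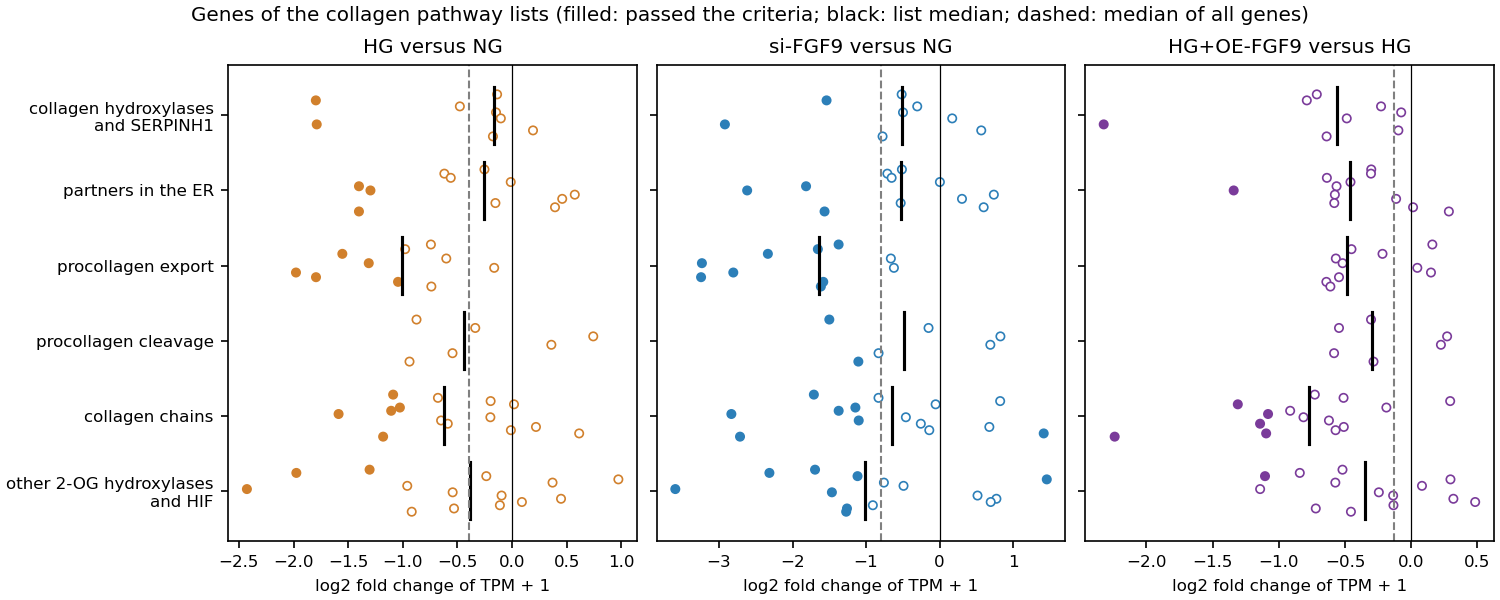
Log2 fold change of TPM + 1 (horizontal axis) of each tested gene, by list (vertical axis), filled where called, with list medians (black) and the median of all genes (dashed). PLOD2 is the only filled point of its list in HG+OE-FGF9 versus HG, at -2.32, and no export gene is filled there.

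LOX, the lysyl oxidase that forms cross-links from the hydroxylated lysines outside the cell, averaged 169 TPM in NG, 57.7 under HG, 41.9 with si-FGF9 and 24.02 with HG+OE-FGF9. Its log2 fold changes were -1.55, -1.99 and -1.22, all called, with none called after GC correction. The last stayed called with HG+OE-FGF9 replicates 1 and 2 as 1 sample (-1.22).

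The genes whose log2(TPM + 1) ran most like 7 of the 8 over the 12 libraries were sought by Pearson's r among 8328 genes (8329 for P4HA3) with a mean of at least 5 TPM, as a description across libraries that share group differences. Nearest to PLOD2 were BNIP3L, MATN2 and GBE1, each with an r of 0.991, and 0.922, 0.980 and 0.986 after GC correction. Nearest to P4HA1 were SMAP1 (0.991), TIAL1 (0.987) and NAP1L1 (0.982), of which TIAL1 fell to 0.654 after GC correction. P3H1 ran with CHD4 (0.973), PAX8 and ZNF384. PLOD1 ran with LTBP4 (0.954), SAA1 and PLXND1, PLOD3 with LRRC75B (0.956), POMT1 and TGFB1, P4HA2 with NADSYN1 (0.925), KDM2B and CD59, and P4HA3 with DDA1 (0.936), LINC01002 and RNF41. After GC correction r fell to 0.270, 0.118 and 0.157 for the genes nearest to P4HA3 and to 0.491 for KDM2B, and was 0.654 or more for the rest of those named.

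Among the 8 genes themselves, over the same 12 libraries, r was 0.918 between PLOD2 and P4HA1, -0.348 between PLOD2 and PLOD3 and -0.870 between PLOD3 and P4HA3. The markers of fibroblasts, a possible source of collagen enzymes in a culture, were also read. Of 7 such markers COL1A2, COL3A1, PDGFRA and PDGFRB were under 1 TPM in all 12 libraries, and the summed level, most of it LUM, ran from 62.5 to 89.2 TPM in NG, from 17.2 to 41.0 under HG, from 11.6 to 21.0 with si-FGF9 and from 11.6 to 22.5 with HG+OE-FGF9. All 4 endothelial markers were under 1 TPM throughout. Of 4 leukocyte markers PTPRC and CD3E were also under 1 TPM, whereas CD68 and CD14 were not. CD68 averaged 132 TPM in NG, 120 under HG, 117 with si-FGF9 and 158 with HG+OE-FGF9. CD14 averaged 1.31, 2.37, 2.25 and 2.97 TPM in the same order. LUM, a proteoglycan of the matrix, averaged 66.6 TPM in NG, 28.1 under HG, 14.4 with si-FGF9 and 13.0 with HG+OE-FGF9, and has a GC content of 36.3%. Its log2 fold changes against NG were -1.31 under HG and -2.16 with si-FGF9, and -0.18 and -0.51 after GC correction, neither called. Its group means stood in the same order as those of PLOD2, and its part in the level of PLOD2 was not tested.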

How the data were processed

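The authors deposited one TPM value per gene and library, to 2 decimals, for 62703 Ensembl genes. The series table and the 12 single files hold identical values. Total RNA was sequenced on an Illumina instrument. The submitters' processing notes name Bowtie 0.12.2 and the mouse build mm8 without a role, and the quantifier, annotation and strand setting of these human TPM are not given in the sources used here. Depth is unknown, and precision was judged from the spread of 3 libraries per group.

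A gene was kept if 3 or more libraries held 1 TPM or higher, which left 14639. The log2(TPM + 1) values of all 12 libraries were fitted by group alone with the trended empirical Bayes of limma (version 3.58.1, R 4.3.3). The shares were compared by two-sided exact permutation tests. The fit was tested on simulated data. GC content came from the longest transcript in GENCODE release 29 (GRCh38), for 96.9% of the genes tested, and the correction subtracted a natural spline with 5 degrees of freedom from each library. A shift of a whole library is removed with it. Near 0 TPM the corrected values cannot be read as changes. FGF9, at 0 in all libraries of NG, HG and si-FGF9, came out as called higher against NG, at 1.09 in HG and 1.63 in si-FGF9. Coordinates of the genes are from the same annotation, and the authors' build may differ. Promoters are from RefSeq, for 7 of the 8 genes.

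Genes named were the 8 genes, P4HB, CRTAP, PPIB, FGF9, LOX, the 3 nearest in pattern to each (those of SERPINH1 are not reported here), and from each other list the called genes with the 3 largest log2 fold changes in either comparison with NG at a mean of at least 5 TPM. EGLN2, LUM, TLL1 and ADAMTS3 were named after their values were seen. The genes and lists were chosen with earlier results of these data known. Alternatives were no filter, a pseudocount of 0.1, fits on 6 libraries, a replicate block, median of ratios scaling, quantile normalization, GC correction, no variance trend, other call rules and each library left out. The GC and length correction, and the count of HG+OE-FGF9 replicates 1 and 2 or of NG replicates 2 and 3 as 1 sample, were added after the data were seen.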

Additional observations from a re-analysis of the deposited data

How the results depend on the processing

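The count of the 8 genes called changed with GC correction, with or without the replicate block, and with the GC and length correction, from 2 to 0 in HG versus NG and from 2 to 1 in si-FGF9 versus NG. With an adjusted p under 0.05 and no fold limit, 6 genes were called in si-FGF9 versus NG and 3 in HG+OE-FGF9 versus HG, in place of 2 and 1. Median of ratios scaling called PLOD1 (1.22) and PLOD3 (1.61) higher in si-FGF9 versus NG. PLOD2 in HG+OE-FGF9 versus HG was called under each of these alternatives and with each library left out, with limma adjusted p from 0.00017 to 0.061, the highest in the fit on 6 libraries. Leaving out 1 library left 2 genes called in both comparisons with NG. Between HG+OE-FGF9 and HG it left 1 to 2, since without HG replicate 2 P4HA1 was called as well.

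The PLOD2 share differed by -32.3 to -24.2, -45.4 to -39.9 and -22.1 to -14.0 points with 1 library left out, and by -7.99 in HG and -21.2 in si-FGF9 versus NG with GC correction. The P4HA1 share differed by -24.6 to -15.6, -21.6 to -15.2 and -11.9 to -2.87 points, and by -10.1 and -6.22 with GC correction.

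Directions of small changes turned with the scaling. In HG versus NG, median of ratios scaling gave PLOD1 0.42, P4HA2 0.045, P4HA3 0.22, P3H1 0.38 and SERPINH1 0.35, and quantile normalization PLOD1 0.0080, P4HA3 0.35 and P3H1 0.16. GC correction, with or without the block, gave PLOD3 -0.022, P4HA3 0.068 and P3H1 0.22, GC and length correction P4HA3 0.077 and P3H1 0.29, and SERPINH1 ran from -0.32 to 0.078 with 1 library left out, the highest without HG replicate 3. In si-FGF9 versus NG, median of ratios scaling gave P4HA2 0.74, P4HA3 0.22, P3H1 0.52 and SERPINH1 0.27, and quantile normalization P4HA3 0.40. GC correction, with or without the block, gave P4HA2 0.39, P4HA3 0.027 and P3H1 0.18, and GC and length correction 0.66, 0.15 and 0.40. In HG+OE-FGF9 versus HG, median of ratios scaling gave PLOD3 0.068 and P4HA3 0.044 and quantile normalization P4HA3 0.026. With 1 library left out PLOD3 ran from -0.19 to 0.013 (without HG replicate 2) and P4HA3 from -0.15 to 0.0085 (without HG+OE-FGF9 replicate 1). The cause was not tested.

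Same-numbered libraries did not deviate together in every pair (correlations from -0.163 to 0.248), so the numbers were not taken as pairs. With the replicate block the counts were 2, 2 and 1, and no call changed. Over all genes, median of ratios scaling moved the split of higher and lower calls from 242 and 3328 to 1088 and 1211 in HG versus NG, from 785 and 6181 to 2812 and 2557 in si-FGF9 versus NG, and from 430 and 391 to 533 and 261 in HG+OE-FGF9 versus HG. Small differences of P4HA3, the rarest of the 8, are the least certain at an unknown depth.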
